A study of Mus musculus with 8 samples.

Results

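The genes described here encode the Golgi enzymes that build and cap the glycans of dendritic cells: sialyltransferases, fucosyltransferases and the galactosyl-, N-acetylgalactosaminyl- and N-acetylglucosaminyltransferases that start, branch and extend the chains. Members were the rows of the deposited count table whose symbol begins with St3gal, St6gal, St8sia, Galnt, B3gnt, B3galt, B4galt, B4galnt, Mgat, Gcnt or C1galt, or is Fut followed by digits, with St8sia4 left out. The rule gave 87 of 23420 features, and 56 of them had enough reads to be tested. The libraries were RNA-seq of mouse dendritic cells, with Gata1 knocked out (KO) or of wild type (WT), at steady state or after LPS, the endotoxin of Gram-negative bacteria. There were 4 groups of 2 libraries: KO at steady state, WT at steady state, KO with LPS and WT with LPS. The sources used here do not give the dose and time of LPS, the origin and age of the cells or the knock-out allele. Whether replicates are separate mice or cultures is not labelled either, so the p-values rest on a spread that could be technical only.

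Glycan chains are made stepwise in the Golgi. Polypeptide N-acetylgalactosaminyltransferases (Galnt) place the first sugar of an O-glycan, C1galt1 turns it into core 1, and Gcnt enzymes branch it to core 2. Mgat enzymes set the branches of N-glycans, B3gnt and B4galt enzymes alternate to lengthen the arms, and fucosyl- and sialyltransferases decorate or cap the ends. In dendritic cells and other leukocytes such caps are ligands for selectins, siglecs and galectins.

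Total counts ran from 8005151 to 15495249 per library, and the members took 0.233% to 0.387% of the reads. Gata1 had 0 reads in all 4 KO libraries, 1 and 10 reads in steady-state WT, and 0 and 1 in WT with LPS. At steady state the gene checked the labels mainly through WT replicate 2, and with LPS hardly at all. Replicates were less alike with LPS: the median SD of the members' log2 CPM (read counts scaled to TMM-adjusted library size) was 0.138 (KO) and 0.141 (WT) at steady state but 0.481 and 0.581 with LPS. Libraries of WT with LPS correlated with Pearson's r of 0.910 over all tested features, against 0.954 to 0.981 in the other groups. Of the dendritic cell markers, 16 of 16 were in the table and none was at 0 in all libraries. Their summed CPM was 17505 to 27602 at steady state and 5031 to 15827 with LPS. Macrophage markers (13 of 14 in the table, Vsig4 at 0) summed to 20847 to 28712 at steady state and 3917 to 21838 with LPS. Eosinophil markers (7 of 8, mostly Siglec5 at steady state) went from 80.8 to 225 at steady state down to 1.30 to 7.01 with LPS. B cell markers (8 of 8, mostly Blnk) went from 57.5 to 78.3 up to 127 to 423. Neutrophil markers (11 of 12) summed to 547 to 878 at steady state and 183 to 634 with LPS, mast cell and basophil markers (9 of 9, Mcpt4 at 0) to 28.9 to 137 and 6.89 to 137, and stromal markers (8 of 8) to 16.1 to 63.0 over all libraries. T cell (7 of 8) and NK cell (6 of 6, Klra8 at 0) markers summed to at most 7.83 in any library. Among the eosinophil markers Prg2 reached at most 3.42 CPM and Epx at most 0.297 CPM. In steady-state WT replicate 2, which held the 10 Gata1 reads, the basophil markers Prss34, Mcpt8 and Cpa3 measured 55.9, 10.3 and 16.7 CPM. Other libraries had at most 1.35, 0.193 and 1.55 CPM of them, while Hdc was highest in WT with LPS replicate 1. The part of such cells in the Gata1 reads was not tested. The summed levels of the dendritic cell, eosinophil and B cell lists did not overlap between the treatments. Within each genotype summed macrophage markers did not overlap either, at 25051 and 28712 against 16354 and 21838 in KO and 20847 and 26305 against 3917 and 5783 in WT. Nor did neutrophil markers in WT, at 547 and 878 against 183 and 258. At steady state Lyz2 and Apoe made up most of the macrophage sum, and in WT Mmp8 most of the neutrophil sum. Single markers went other ways. With LPS Emr1 rose from 642 and 992 to 1787 and 2751 CPM in KO. In WT it rose from 509 and 416 to 1509 and 843 CPM. Fcgr1 and Cd68 rose in KO. Of the dendritic cell markers, Slamf7 rose in both genotypes and Irf8 and Btla in WT. For all these lists the part in the members' results was not tested.

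The 31 members that were not tested were close to silent. Of these, 7 had no read in any library, 20 had at most 2 reads in every library, and the highest count was 11, of B3galt5 in KO at steady state replicate 2. They included 3 of 5 St8sia genes (St8sia2, St8sia3 and St8sia5, at most 2 reads each), 3 of 6 St6galnac genes (St6galnac1, St6galnac3 and St6galnac5), 3 of 8 fucosyltransferases (Fut1, Fut2 and Fut9) and 7 of 18 Galnt genes (Galnt5, Galnt13, Galnt15, Galnt16, Galnt18, Galntl5 and Galntl6). St3gal6, St6gal2, Gcnt3, Gcnt7, Mgat3, Mgat4c, Mgat5b, B3galt1, B4galt2, B3gnt4, B3gnt6, B3gnt9, B4galnt3 and B4galnt4 completed them. A filter of CPM of at least 1 in at least 2 libraries also kept 56 members. The least counted member that was tested was Gcnt4, with 83 reads over the 8 libraries, and the most counted that was not was Gcnt7, with 46.

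Per kilobase of exon, the most abundant member over the 8 libraries was B4galnt1, with a mean of 125 CPM per kilobase, followed by Mgat4b at 69.1, St3gal1 at 61.7, B4galt1 at 45.1 and Mgat1 at 42.8. The mean pools treatments that differed. With LPS B4galnt1, at 51.3 (KO) and 77.0 (WT), was below Mgat4b, at 88.8 and 81.1, and St3gal1, at 80.5 and 98.4. At steady state it ranked first in both genotypes, at 174 and 199. B4galnt1 makes the gangliosides GM2 and GD2, B4galt1 the N-acetyllactosamine unit of most chains, and Mgat1 the first branch of complex N-glycans. Exons of Slc26a10 overlap 29.9% of the exon length of B4galnt1, and the libraries do not mark strand, so that part of its reads is uncertain.

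**Figure D1:**
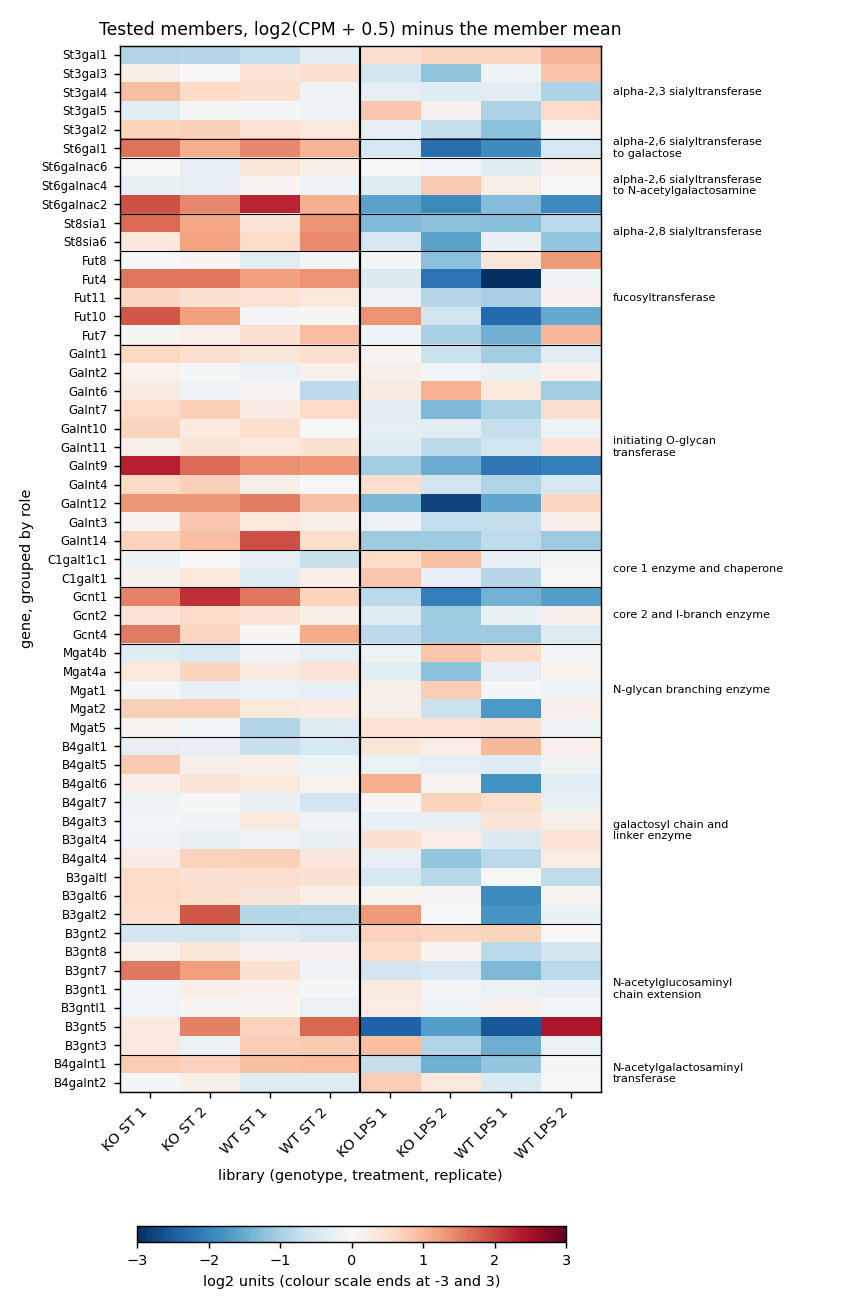
Level of each of the 56 tested members in each of the 8 libraries, as log2(CPM + 0.5) minus the member's mean, with rows grouped by role and a line between steady state and LPS. Galnt9, Gcnt1, St6galnac2 and St8sia1 were above their mean in all steady-state libraries and below it in all LPS libraries, and St3gal1 showed the opposite order.

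LPS was compared with steady state in each genotype with edgeR's quasi-likelihood test over all 12442 tested features, with Benjamini-Hochberg adjustment and calls at an adjusted p under 0.05. In WT, St3gal1 rose and Galnt9, Gcnt1, St6galnac2 and St8sia1 fell, which is 5 of 56 members (8.93%) against 6.49% of all features. In KO the same 5 were called in the same directions, B3gnt2 rose as well, and B3gnt7, B4galnt1, Galnt12, Gcnt2 and St6gal1 fell, which is 11 of 56 (19.6%) against 11.8% of all features. Members higher with LPS were 1 in WT and 2 in KO (3.0% and 5.30% of all features). Members lower with LPS were 4 in WT and 9 in KO (3.49% and 6.46% of all features). The median log2 fold change of the 56 members was -0.48 in WT and -0.76 in KO, beside 0.00 and -0.02 over all features. An unadjusted p under 0.05 was met by 19 members in WT (26.7% of all features) and 27 in KO (32.8%). Libraries of the treatments did not overlap for 40 members in WT (56.6% of all features), 31 of them lower with LPS, and for 44 in KO (72.6%), 33 of them lower. Leaving out a library changed these counts, and the call of Galnt9 in both genotypes was kept in all 8 such fits. Each other called value lost its call in 3 to 7 of the 8. In both genotypes the number of called members fell in some of these fits and rose in others. Each fit leaves 1 library in a group, and no share over all features is given for it. A change in the members' number therefore cannot be told from one across all features. In bulk RNA, fewer cells that express a gene and less RNA per cell cannot be told apart, which holds for each change below.

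**Figure D2:**
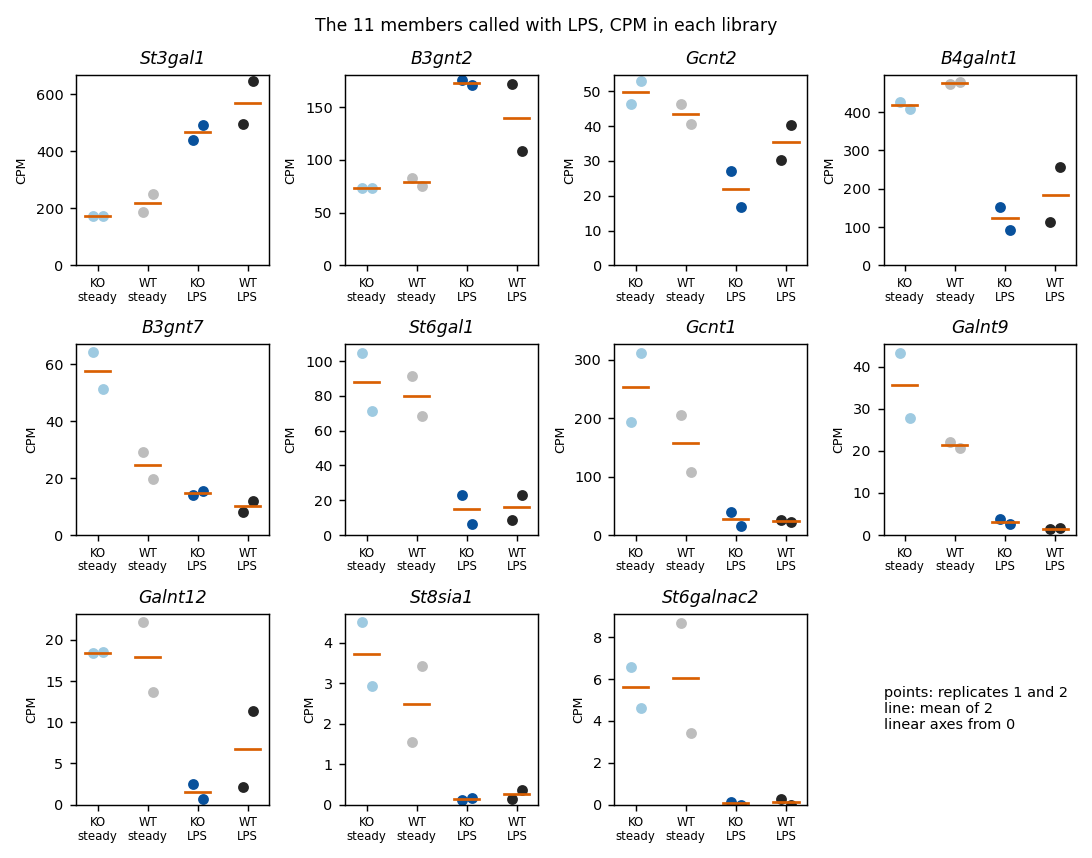
CPM of the 11 members called with LPS, 1 panel per gene with its own linear axis from 0; points are the 2 libraries of each group and lines their means. St3gal1 and B3gnt2 were higher in every LPS library than in any steady-state library, and the other 9 were lower in every LPS library than in any steady-state library, Gcnt2 by a narrow margin near 40.4 CPM.

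St3gal1 (chr15:67102875-67176830, minus strand, GRCm38) adds sialic acid to the galactose of core 1 O-glycans. It measured 173 and 175 CPM (KO) and 189 and 251 CPM (WT) at steady state, and 439.6 and 494 CPM (KO) and 495 and 646 CPM (WT) with LPS. All 4 LPS libraries were above all 4 steady-state libraries, and the WT libraries were above the KO libraries within each treatment. The rise was 2.59-fold in WT (log2 1.37 ± 0.28 SE, adjusted p = 0.0343, edgeR, n = 2 per group) and 2.68-fold in KO (log2 1.42 ± 0.28, adjusted p = 0.0241). EdgeR did not call the other 4 tested St3gal genes in the main fit. DESeq2 called St3gal4 in KO, as did edgeR with no filter and with only the groups compared. The fit with only the groups compared also called St3gal2 in KO. St3gal4, which caps N-acetyllactosamine chains, measured 89.2 and 71.5 CPM (KO) and 66.6 and 43.6 CPM (WT) at steady state, against 38.3 and 36.4 CPM (KO) and 37.3 and 24.1 CPM (WT) with LPS. Its log2 fold change with LPS was -0.85 ± 0.31 in WT (edgeR adjusted p = 0.143) and -1.10 ± 0.31 in KO (0.0616). St3gal2, with O-glycan and ganglioside acceptors, ran from 39.9 to 52.5 CPM at steady state and from 13.2 to 34.0 CPM with LPS. Its log2 fold change was -0.80 ± 0.42 in WT (edgeR adjusted p = 0.262) and -1.18 ± 0.42 in KO (0.107). St3gal5, the GM3 synthase, ran from 28.8 to 35.1 CPM at steady state and from 19.0 to 63.8 CPM with LPS (log2 0.70 ± 0.47 in KO, edgeR adjusted p = 0.330). St3gal3 is described with the genotypes.

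**Figure D3:**
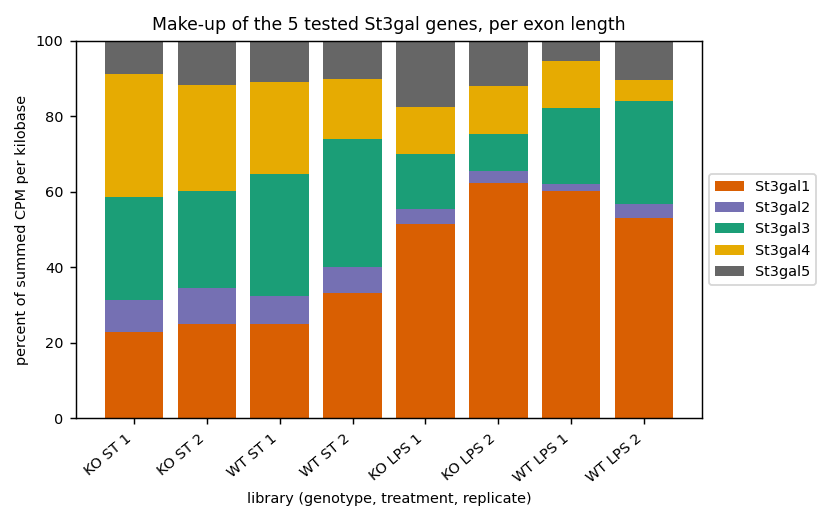
Share of each of the 5 tested St3gal genes in their summed CPM per kilobase of exon, 1 stacked bar per library, in percent. The St3gal1 segment was 22.8% to 33.3% at steady state and 51.5% to 62.4% with LPS.

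Per kilobase, St3gal1 made up 22.8% and 24.9% (KO) and 25.1% and 33.3% (WT) of the tested St3gal mRNA at steady state. With LPS the share was 51.5% and 62.4% in KO and 60.1% and 53.1% in WT. St3gal4 went from 16% to 32.5% of that sum at steady state to 5.49% to 12.8% with LPS. These shares are made from the counts already tested and carry no test of their own.

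St6gal1 (chr16:23224740-23360350, plus strand) caps N-glycan arms with sialic acid and was tested, while St6gal2 had at most 1 read in a library. It measured 105 and 71.4 CPM (KO) and 91.3 and 68.2 CPM (WT) at steady state, and 23.0 and 6.58 CPM (KO) and 8.60 and 23.3 CPM (WT) with LPS. No LPS library reached a steady-state library, and the genotypes overlapped in each treatment. DESeq2, and edgeR with no filter, called the fall in both genotypes. With the filter, edgeR gave a 5.90-fold fall in KO (log2 -2.56 ± 0.66, edgeR adjusted p = 0.0480). In WT the log2 fold change was -2.31 ± 0.65 with an edgeR adjusted p of 0.0790, which misses the threshold. The KO value lies just inside it, and the call was lost with upper-quartile factors, with robust dispersion, with the replicate block and in 5 of 8 fits without a library (adjusted p up to 0.201). The log2 fold change was -1.96 without KO LPS replicate 2 and -3.74 without KO LPS replicate 1.

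Among the St6galnac genes, which add sialic acid to the N-acetylgalactosamine of O-glycans and some gangliosides, St6galnac2 (chr11:116675303-116694868) fell almost to no reads. It had 85 and 52 reads (KO) and 90 and 46 reads (WT) at steady state, against 1 and 0 reads (KO) and 2 and 0 reads (WT) with LPS. Pooled over a group and scaled to depth, steady state exceeded LPS 87.1-fold in KO (95% exact interval 15.4 to 3467, from 137 and 1 reads) and 67.8-fold in WT (18.4 to 565, from 136 and 2 reads). These intervals cover counting error only. The edgeR adjusted p was 0.0244 in KO and 0.0290 in WT, and part of its exon length is shared with 1810032O08Rik. Its WT call was lost with only the groups compared. St6galnac6, which makes disialylated gangliosides, ran from 64.0 to 101 CPM at steady state and from 60.6 to 87.1 CPM with LPS. St6galnac4 ran from 35.6 to 44.5 CPM at steady state and from 32.5 to 73.9 CPM with LPS, with the highest value in KO replicate 2. Neither was called in any comparison.

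St8sia1 (chr6:142821545-142964452), the GD3 synthase, was low at steady state, with 4.50 and 2.92 CPM (KO) and 1.55 and 3.42 CPM (WT). With LPS it had 0.113 and 0.153 CPM in KO, which is 1 read in each library, and 0.132 and 0.371 CPM in WT. All LPS libraries were below all steady-state libraries. Steady state exceeded LPS 28.9-fold in KO (95% exact interval 7.78 to 243, from 91 and 2 reads; edgeR adjusted p = 0.0182), and the fitted fall in WT was log2 -3.12 ± 0.73 (adjusted p = 0.0490). The WT call was lost in 7 of 8 fits without a library (adjusted p up to 0.262), with robust dispersion, with the replicate block and with only the groups compared. Its value was -2.43 without WT steady-state replicate 2 and -4.12 without WT LPS replicate 2. St8sia6, which adds a second sialic acid to O-glycans, measured 1.4 and 3.01 CPM (KO) and 1.74 and 3.57 CPM (WT) at steady state, against 0.565 and 0.00 CPM (KO) and 0.793 and 0.186 CPM (WT) with LPS. Its adjusted p was 0.141 in KO and 0.176 in WT.

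None of the 5 tested fucosyltransferases was called with LPS by edgeR in either genotype, with Fut4 and Fut11 at an unadjusted p under 0.05 in KO and Fut4, Fut8 and Fut10 in WT. DESeq2 called Fut4 in KO and Fut10 in WT. Fut4, which makes Lewis x structures in leukocytes, measured 52.2 and 51.9 CPM (KO) and 40.5 and 43.9 CPM (WT) at steady state. With LPS it measured 12.5 and 3.22 CPM (KO) and 1.59 and 15.7 CPM (WT). Every LPS library was below every steady-state library, but the LPS replicates were far apart (log2 fold change -2.70 ± 0.94 in KO, edgeR adjusted p = 0.0994, and -2.25 ± 0.91 in WT, 0.169). Fut7, the partner of Fut4 in making selectin ligands, ranged from 2.33 to 4.76 CPM at steady state and from 0.529 to 5.01 CPM with LPS.

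Galnt9 (chr5:110544355-110621380, plus strand) starts O-glycans and had the smallest adjusted p of the members. It measured 43.3 and 27.8 CPM (KO) and 22.0 and 20.7 CPM (WT) at steady state, and 3.73 and 2.60 CPM (KO) and 1.45 and 1.61 CPM (WT) with LPS. Libraries of the treatments did not overlap, and KO libraries were above WT libraries in each treatment. The fall was 13.8-fold in WT (log2 -3.78 ± 0.37, edgeR adjusted p = 0.00454) and 11.1-fold in KO (log2 -3.47 ± 0.36, adjusted p = 0.00372). Galnt12 (chr4:47091909-47123070) measured 18.4 and 18.5 CPM (KO) and 22.1 and 13.7 CPM (WT) at steady state, against 2.49 and 0.612 CPM (KO) and 2.12 and 11.4 CPM (WT) with LPS. Its fall was 11.4-fold in KO (log2 -3.52 ± 0.88, edgeR adjusted p = 0.0442), and the WT value, with replicate 2 at 11.4 CPM, was log2 -1.37 ± 0.77 (0.291). The KO call was lost with the replicate block and in 6 of 8 fits without a library (adjusted p up to 0.216), and its value was -2.91 without KO LPS replicate 2 and -4.89 without KO LPS replicate 1. Galnt14 had 33 reads in KO at steady state and 0 with LPS, which is at least 7.0-fold lower against a floor of 3 reads over the group, with an edgeR adjusted p of 0.0603. DESeq2, and edgeR with no filter, called Galnt14 in both genotypes. EdgeR called neither of the widely expressed Galnt1 and Galnt2, and DESeq2 called Galnt1 in WT (edgeR log2 -1.08, adjusted p = 0.0977). Galnt1 measured 200.5 and 183 CPM (KO) and 167 and 181 CPM (WT) at steady state, against 135 and 83.3 CPM (KO) and 62.7 and 102 CPM (WT) with LPS. Galnt2 ran from 102 to 129.8 CPM at steady state and from 99.7 to 132 CPM with LPS, with log2 fold changes of -0.03 ± 0.25 in WT and 0.01 ± 0.25 in KO.

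Gcnt1 (chr19:17326141-17372844, minus strand) branches core 1 into core 2 O-glycans, the scaffold of many selectin ligands. It measured 194 and 312 CPM (KO) and 206 and 109 CPM (WT) at steady state, and 39.1 and 16.1 CPM (KO) and 25.1 and 21.5 CPM (WT) with LPS. All steady-state libraries lay above all LPS libraries, with the genotypes overlapping in each treatment. The fall was 6.75-fold in WT (log2 -2.75 ± 0.52, edgeR adjusted p = 0.0262) and 9.15-fold in KO (log2 -3.19 ± 0.53, adjusted p = 0.0145). The KO value was -3.98 without KO LPS replicate 1, still called, and -2.72 without KO LPS replicate 2, no longer called. Gcnt2, the I-branching enzyme (chr13:40859754-40960892), measured 46.5 and 53.0 CPM (KO) and 46.3 and 40.4 CPM (WT) at steady state, and 27.0 and 16.7 CPM (KO) and 30.2 and 40.4 CPM (WT) with LPS. Its 2.27-fold fall in KO passed the test (log2 -1.18 ± 0.30, edgeR adjusted p = 0.0468), with a WT value of -0.29 ± 0.30 (0.546) and no called difference between them (log2 -0.89 ± 0.42, interaction adjusted p = 0.829). This KO call was lost with upper-quartile factors and with the replicate block. C1galt1, the core 1 synthase, was not called. It ran from 11.6 to 19.3 CPM at steady state and from 8.33 to 27.6 CPM with LPS, and its chaperone C1galt1c1 is described with the genotypes.

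None of the 5 tested N-glycan branching genes was called by edgeR in either genotype, with Mgat1 and Mgat4a in KO and Mgat5 in WT at an unadjusted p under 0.05, and DESeq2 called Mgat4a in KO. Mgat4a, which adds a branch to the core, measured 191 and 240.4 CPM (KO) and 183 and 206 CPM (WT) at steady state, against 122 and 64.1 CPM (KO) and 128 and 162 CPM (WT) with LPS (KO log2 -1.21 ± 0.35, edgeR adjusted p = 0.0640). Mgat4b, its paralog, measured 123 and 116 CPM (KO) and 147 and 130.1 CPM (WT) at steady state, against 146 and 286 CPM (KO) and 239 and 155 CPM (WT) with LPS (KO log2 0.85 ± 0.37, edgeR adjusted p = 0.158). All LPS libraries of Mgat4a were below its steady-state libraries, while those of Mgat4b were above the steady-state libraries of their own genotype. Mgat1 measured 135 and 118 CPM (KO) and 122 and 119 CPM (WT) at steady state, and 159 and 236 CPM (KO) and 134 and 127 CPM (WT) with LPS. Mgat5, whose branch carries long lactosamine chains, ran from 11.9 to 24.0 CPM at steady state and from 21.0 to 31.5 CPM with LPS.

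Of the chain-extending enzymes, B3gnt2 and B3gnt7 moved in opposite directions in KO. B3gnt2 (chr11:22759738-22860961), the main poly-N-acetyllactosamine synthase, measured 73.7 and 73.4 CPM (KO) and 82.8 and 75.2 CPM (WT) at steady state, and 176 and 171 CPM (KO) and 172 and 108 CPM (WT) with LPS. Every LPS library was above every steady-state library. The rise was 2.36-fold in KO (log2 1.24 ± 0.27, edgeR adjusted p = 0.0307), and the WT value was 0.82 ± 0.27 (0.108). With the replicate block the KO call was lost. B3gnt7 (chr1:86302832-86307305), which extends keratan sulfate chains, measured 64.4 and 51.3 CPM (KO) and 29.4 and 19.8 CPM (WT) at steady state, and 14 and 15.3 CPM (KO) and 8.07 and 12 CPM (WT) with LPS. It fell 3.94-fold in KO (log2 -1.98 ± 0.32, edgeR adjusted p = 0.0138), with a WT value of -1.28 ± 0.32 (0.0583). The WT fall was called by DESeq2 and by edgeR with no filter. KO libraries of B3gnt7 were above WT libraries in each treatment. B4galt1 measured 149.8 and 152 CPM (KO) and 113 and 123 CPM (WT) at steady state, against 231 and 208 CPM (KO) and 349.9 and 199.9 CPM (WT) with LPS (WT log2 1.22 ± 0.31, edgeR adjusted p = 0.0610). None of the 10 tested B4galt and B3galt genes was called with LPS by edgeR, and DESeq2 called B4galt1 in WT. An unadjusted p under 0.05 was met by B4galt1 in WT and, in KO, by B4galt5 and B3galtl, the older symbol of the glucosyltransferase B3glct.

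B4galnt1 (chr10:127165225-127172330), the GM2 and GD2 synthase, measured 427 and 408 CPM (KO) and 473 and 479 CPM (WT) at steady state, and 153 and 92.6 CPM (KO) and 113 and 256 CPM (WT) with LPS. Its fall was 3.40-fold in KO (log2 -1.76 ± 0.44, edgeR adjusted p = 0.0430), and in WT, where replicate 2 stayed higher, log2 was -1.37 ± 0.43 (0.101). DESeq2 called the fall in WT as well, and the edgeR call in KO was lost with the replicate block. All LPS libraries were below all steady-state libraries. B4galnt2, which makes the Sda antigen, measured 4.10 to 9.94 CPM over all libraries and was not called.

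**Figure D4:**
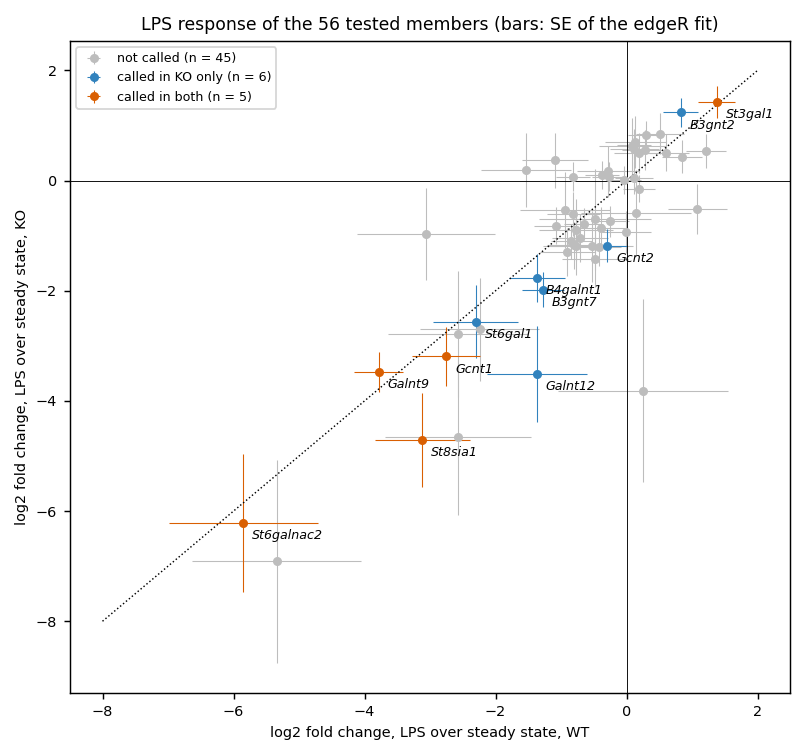
Log2 fold change of LPS over steady state of each tested member in WT (x axis) and KO (y axis), with bars of 1 SE and the line of equal change; colours show calls. The 5 members called in both genotypes and the 6 called in KO lie in the quadrants where both genotypes changed in the same direction.

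In the plot of LPS responses the genotypes are set side by side. The sign was shared by 45 of 56 members (80.4%, beside 79.4% of all features), and Pearson's r across members was 0.846 (0.794 across all features). Genes share libraries and are not independent replicates, so these are descriptions. The 5 shared calls were 100% of the WT calls and 45.5% of the KO calls, whereas 553 shared calls of all features were 68.5% and 37.8%. No member passed the interaction test by edgeR or DESeq2 (0% of all features by edgeR and 0.836% by DESeq2). Fut8 and B3gnt8 had an unadjusted edgeR p under 0.05, which is 2 of 56 against 6.41% of all features. The smallest edgeR adjusted p was 0.749, for Fut8, the core fucosyltransferase of N-glycans. It measured 32.0 and 33.0 CPM (KO) and 25.7 and 31.6 CPM (WT) at steady state, and 31.7 and 13.3 CPM (KO) and 41.5 and 79.4 CPM (WT) with LPS. WT libraries were higher with LPS and KO libraries were lower, KO replicate 1 only slightly, with a difference of log2 -1.60 ± 0.64 between the responses.

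To show the DNA before the starts of members called with LPS, promoter windows of 250 bases before an annotated start were taken from RefSeq (GRCm38.p6). Of the 11 called members 7 had an entry, among them B3gnt2, which rose. St3gal1, St6galnac2, B4galnt1 and Galnt12 did not. Windows were searched on both strands for GATA letters (AGATAA, or the same with T as its first letter, G as its last, or both) and for NF-kB letters (GGG, any 2 bases and TTTCC, in which C could replace the third T, or the second and the third), and a window was counted once however many matches it held. GATA letters stood in 2 of 14 windows of the called members (14.3%), in 21.3% of the 89 windows of all members and in 26.5% of 32851 windows of all genes. NF-kB letters stood in 1 of 14 windows (7.14%), in 4.49% of members' windows and in 4.02% of all windows. A match is a description of letters only. The windows shown are chr5:110544105-110544354 (plus strand) for Galnt9, chr19:17372845-17373094 (minus) for Gcnt1, chr6:142964453-142964702 (minus) for St8sia1, and chr16:23224490-23224739 and chr16:23290220-23290469 (plus) for 2 starts of St6gal1. Capitals mark the matches, GATA letters 89 bases before the first St6gal1 start and NF-kB letters 51 bases before the other. G and C made up 72.4% of the Galnt9 window shown and 50.0% of the window of its other start. For Gcnt1 they made up 40.4% of the window shown and 55.6% and 51.6% of those of its other starts. The only window of St8sia1 held 63.6%.
Galnt9: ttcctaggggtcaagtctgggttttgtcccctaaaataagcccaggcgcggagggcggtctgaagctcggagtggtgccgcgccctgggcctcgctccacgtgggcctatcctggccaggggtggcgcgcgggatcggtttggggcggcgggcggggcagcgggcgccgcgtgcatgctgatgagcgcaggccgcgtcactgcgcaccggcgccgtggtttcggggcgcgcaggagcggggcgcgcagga
Gcnt1: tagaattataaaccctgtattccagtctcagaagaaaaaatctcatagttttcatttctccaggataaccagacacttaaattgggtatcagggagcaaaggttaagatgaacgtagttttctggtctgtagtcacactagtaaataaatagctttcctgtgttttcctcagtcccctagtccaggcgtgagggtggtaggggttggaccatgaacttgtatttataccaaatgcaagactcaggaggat
St8sia1: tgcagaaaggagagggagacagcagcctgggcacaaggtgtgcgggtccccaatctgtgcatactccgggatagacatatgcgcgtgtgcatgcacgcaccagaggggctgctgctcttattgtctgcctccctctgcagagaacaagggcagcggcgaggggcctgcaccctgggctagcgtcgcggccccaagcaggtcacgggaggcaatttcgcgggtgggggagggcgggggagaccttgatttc
St6gal1 first start: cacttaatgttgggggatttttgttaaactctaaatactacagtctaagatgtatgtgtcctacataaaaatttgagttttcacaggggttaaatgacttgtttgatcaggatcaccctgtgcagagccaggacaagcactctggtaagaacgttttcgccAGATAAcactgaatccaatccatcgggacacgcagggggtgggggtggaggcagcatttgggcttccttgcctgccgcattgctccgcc
St6gal1 other start: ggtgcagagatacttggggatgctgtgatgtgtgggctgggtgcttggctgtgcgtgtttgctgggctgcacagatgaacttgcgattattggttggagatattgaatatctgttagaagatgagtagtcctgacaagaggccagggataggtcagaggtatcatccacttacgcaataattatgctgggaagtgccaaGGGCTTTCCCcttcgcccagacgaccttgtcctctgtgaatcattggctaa

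The knock-out was compared with WT at each treatment. At steady state edgeR called 0 of 56 members (0% of all features), 2 members had an unadjusted p under 0.05 (2.63% of all features), and DESeq2 called 0 (0.217% of all features). The libraries of the genotypes did not overlap for 29 members, 20 higher and 9 lower in KO, and this held for 45.5% of all features. The log2 fold change was above 0 for 39 members (69.6%, beside 49.1% of all features), with a median of 0.15. With LPS edgeR again called 0 of 56 members (0.772% of all features), 9 had an unadjusted p under 0.05 (16.9%), and DESeq2 called 5 (8.93%, beside 8.50% of all features): B3gnt5, B3gnt8, B4galt6, Fut10 and St3gal3. Libraries did not overlap for 16 members, 10 higher and 6 lower in KO, and this held for 36.1% of all features. The smallest edgeR adjusted p was 0.114. Leaving out WT LPS replicate 1 led to calls of B3gnt5, Galnt12 and St3gal3, in a fit for which no share over all features is given.

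**Figure D5:**
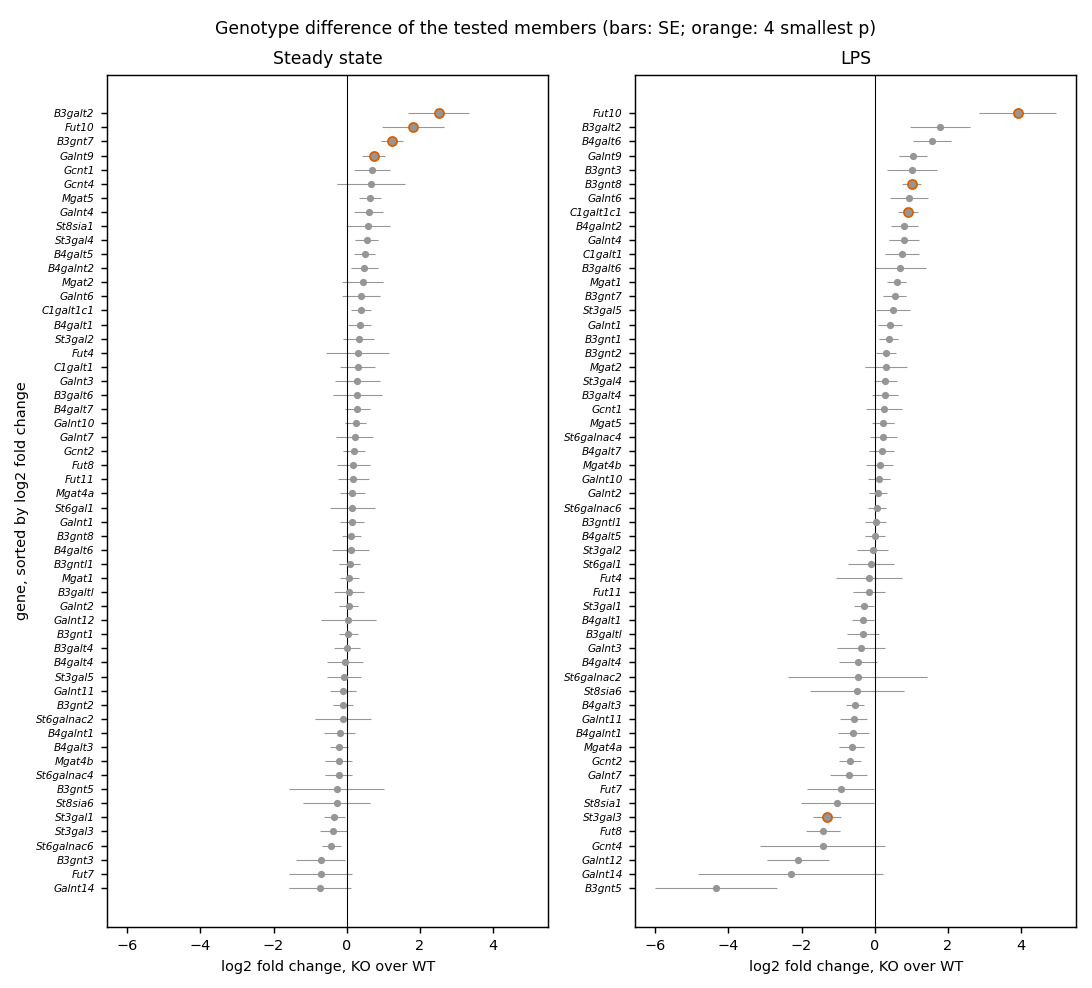
Log2 fold change of KO over WT for the 56 tested members at steady state (left) and with LPS (right), sorted, with bars of 1 SE; orange marks the 4 smallest p-values of each panel. None passed the test, and bars were wider with LPS than at steady state for Fut10 and B3gnt5.

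At steady state the smallest unadjusted p-values belonged to B3gnt7, B3galt2, Galnt9 and Fut10, all with KO libraries above WT libraries and all with an edgeR adjusted p of 1. B3gnt7, at 64.4 and 51.3 CPM in KO against 29.4 and 19.8 CPM in WT, had a log2 fold change of 1.24 ± 0.31. B3galt2, a galactosyltransferase of type 1 chains, measured 4.58 and 12.3 CPM (KO) and 1.45 and 1.49 CPM (WT) at steady state, with log2 2.51 ± 0.83, and 8.02 and 3.06 CPM (KO) and 0.529 and 2.54 CPM (WT) with LPS. Its KO libraries were above its WT libraries in each treatment. The summed eosinophil list was also higher in KO at steady state, at 216 and 225 CPM against 109 and 80.8. Most of this sum was Siglec5, at 154 and 188 CPM in KO against 70.6 and 56.5 in WT. Alox15 and Ccr3 were also higher in KO, while Ear2 and Il5ra overlapped. Prg2 was lower in KO, at 0 and 0.708 CPM against 0.869 and 3.42, and Epx was near 0. WT replicate 2 had the highest summed neutrophil markers, 878 against 547 to 588 in the other steady-state libraries. The part of either list in these values was not tested. B4galt5, which makes lactosylceramide, measured 219.6 and 144 CPM (KO) and 145 and 114 CPM (WT) at steady state, and 112 and 105 CPM (KO) and 97.7 and 119.8 CPM (WT) with LPS.

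With LPS the smallest p-values belonged to B3gnt8, Fut10, St3gal3 and C1galt1c1. B3gnt8, which extends branched N-glycans, measured 42.8 and 30.6 CPM (KO) and 16.5 and 19.9 CPM (WT) with LPS, after 32.3 and 37.5 CPM (KO) and 32.1 and 32.0 CPM (WT) at steady state (log2 1.01 ± 0.26 with LPS, edgeR adjusted p = 0.114). Fut10, a fucosyltransferase, measured 5.87 and 1.22 CPM (KO) and 0.00 and 0.371 CPM (WT) with LPS, and 8.69 and 5.40 CPM (KO) and 1.93 and 2.08 CPM (WT) at steady state (log2 3.90 ± 1.05 with LPS, adjusted p = 0.125). In WT with LPS these are 0 and 6 reads, and the log2 value ran from 2.36 without KO LPS replicate 1 to 8.21 without WT LPS replicate 2. St3gal3, which caps lactosamine chains, measured 55.1 and 34.6 CPM (KO) and 72.9 and 148 CPM (WT) with LPS, and 91.5 and 80.4 CPM (KO) and 108 and 114 CPM (WT) at steady state. Its KO libraries were below its WT libraries in each treatment, while those of B3gnt8, Fut10 and C1galt1c1 were above. Its log2 fold change with LPS was -1.30 ± 0.38 (edgeR adjusted p = 0.148), running from -1.72 without WT LPS replicate 1, where the adjusted p was 0.0270, to -0.69 without WT LPS replicate 2, where it was 0.243. C1galt1c1, the chaperone that C1galt1 needs, measured 30.6 and 38.1 CPM (KO) and 17.3 and 19.3 CPM (WT) with LPS, and 18.3 and 20.6 CPM (KO) and 17.3 and 12.7 CPM (WT) at steady state (log2 0.91 ± 0.27 with LPS, edgeR adjusted p = 0.153). For each of the 4 the libraries of the genotypes did not overlap with LPS. B4galt6, the other lactosylceramide synthase, measured 128 and 64.1 CPM (KO) and 16.8 and 47.8 CPM (WT) with LPS, after 64.9 to 79.5 CPM at steady state (log2 1.57 ± 0.51 with LPS, edgeR adjusted p = 0.183). Summed macrophage markers were also higher in KO with LPS, with 21838 and 16354 CPM against 5783 and 3917. Lyz2 was the largest part, at 16039 and 10001 CPM in KO against 2256 and 2057 in WT. Emr1, Csf1r, Fcgr1, C1qa, C1qc and Apoe were also higher in KO, while Cd68, Mertk, Mrc1, C1qb and Timd4 overlapped. Summed dendritic cell markers were lower, with 5031 and 9219 CPM against 15827 and 12608. Of these, Cd74, H2-Ab1, Irf4 and Slamf7 overlapped between the genotypes, and the other markers of that list were lower in KO. The part of either list in these differences was not tested.

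A list of other genes of glycan building and breakdown (nucleotide sugar synthesis and transport, oligosaccharyltransferase, N-glycan trimming, sulfotransferases, exoglycosidases and carrier proteins) held 90 names, of which 82 were tested. By edgeR 0 of 82 were called between the genotypes at steady state, with LPS or in the interaction (0%, 0.772% and 0% of all features). An unadjusted edgeR p under 0.05 was met by 5, 16 and 4 of the 82, in the same order (2.63%, 16.9% and 6.41% of all features). DESeq2 called 0, 9 and 0 (0.217%, 8.5% and 0.836% of all features). With LPS in WT, by edgeR 0 of the 82 rose and 3 fell (6.49% of all features were called in either direction). The 3 were the mannosidases Man1c1 and Man2a2, which trim N-glycans, and Fuca1, a lysosomal fucosidase. In KO, by edgeR 2 rose and 5 fell (11.8% of all features were called in either direction). With LPS DESeq2 called 7 of the 82 in WT and 18 in KO (16% and 22.9% of all features). Man2a2 had log2 -1.30 ± 0.24 in WT (edgeR adjusted p = 0.0235), Man1c1 -1.85 ± 0.26 in WT (edgeR adjusted p = 0.0101) and -1.25 ± 0.25 in KO (0.0244), and Fuca1 -1.24 ± 0.27 in WT (0.0431) and -1.16 ± 0.27 in KO (0.0385). In KO the sulfotransferases Chst10 (log2 -2.25 ± 0.49, edgeR adjusted p = 0.0300) and Chst7 (-3.09 ± 0.76, 0.0422) fell, as did the glycan carrier Cd24a (-3.05 ± 0.67, 0.0307). Ugp2, which makes UDP-glucose (log2 1.87 ± 0.45, edgeR adjusted p = 0.0405), and Naglu, a lysosomal glucosaminidase (0.89 ± 0.23, 0.0497), rose in KO. The list's median log2 fold change with LPS was -0.21 in WT and -0.10 in KO, beside -0.48 and -0.76 for the members.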

How the data were processed

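Libraries were made from total RNA with the RNeasy plus mini and TruSeq RNA v2 kits, per the labels' protocols. The authors deposited raw read counts per gene in whole numbers. Tools listed in the submitters' processing notes, without roles, are featureCounts of Subread 1.4.3, TopHat2 2.0.8 and edgeR 3.6.8, with the build mm10. The counting of reads that fit several genes is not stated, and B3gnt1, an older symbol of both B4gat1 and B3gnt2, is uncertain.

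Groups and replicates came from the titles. In R 4.3.3 with edgeR 4.0.16, features were kept with filterByExpr (minimum count 10, minimum total 15), scaled with TMM, and fitted with 1 coefficient per group over all 8 libraries (4 residual degrees of freedom). The 5 two-sided comparisons were the genotypes at either treatment, the treatments in either genotype and their interaction, at a Benjamini-Hochberg adjusted p under 0.05. SE is the log2 fold change divided by the square root of F. Exon lengths and positions are from the GENCODE annotation of GRCm38, the assembly of mm10. The procedure was tested on simulated data.

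The members and lists were chosen with earlier results of these data known. Named members are those called in any comparison, the 4 smallest p-values of each comparison and the most abundant of each role. Fut4-ps1, a pseudogene, was left out. B3gnt5, St3gal2, St3gal5, Fut7, Galnt14 and Mgat5 were added after their values were seen. Alternatives were DESeq2 1.42.0, a replicate block, RLE and upper-quartile factors, looser and stricter filters, robust dispersion, a fit of the compared groups alone, other thresholds and each library left out.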

Additional observations from a re-analysis of the deposited data

How the results depend on the processing

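No member was called for KO against WT at steady state or in the interaction under any alternative. None of 28 log2 fold changes of 18 members (the called ones and the 4 smallest p-values of each comparison without one) changed sign under an alternative. Of 60 other values of named members with LPS, none of them called, 15 changed sign under at least 1 alternative, among them both of Galnt2. For KO against WT with LPS, 1 member was called with no filter and 5 with DESeq2, and 0 to 3 without a replicate (3 without WT LPS replicate 1). For LPS in WT the 5 calls became 1 at an adjusted p under 0.01, 9 with no filter, 2 with only the groups compared and 12 with DESeq2 (16% of all features). For LPS in KO the 11 calls became 1 at an adjusted p under 0.01, 17 with only the groups compared, 19 with DESeq2 (22.9% of all features) and 1 to 23 without a replicate (23 without WT LPS replicate 1 or 2). The cause was not tested. A fit without a library has fewer residual degrees of freedom, also for comparisons that library is no part of, and the lone library of a group is assumed to vary like the others.

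With the replicate number as a block, 3 members were called with LPS in WT and 6 in KO (3.74% and 6.24% of all features). The numbers were not taken as pairing: the deviations of same-numbered libraries correlated from -0.599 (KO and WT with LPS) to 0.260. A block with the KO LPS numbers crossed, chosen after seeing the data, called 6 in WT and 16 in KO (10.3% and 20% of all features). Of the single-gene values under alternatives, 382 stayed on their side of the threshold, 84 lost a call and 5 gained one. At these depths 1 read is a sizeable part of the level of St6galnac2, St8sia1, Fut10, Gcnt4 and Galnt14 with LPS.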

Other observations

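Gcnt1 and St3gal1 act on the same substrate, core 1 O-glycans, the first branching and the second capping it. Per kilobase of exon, St3gal1 over Gcnt1 was 0.751 and 0.473 in KO and 0.773 and 1.96 in steady-state WT. With LPS the ratio was 9.50 and 25.9 in KO and 16.6 and 25.3 in WT. The ratio was chosen after the values of both genes were seen and is given without a test.

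B3gnt5, the synthase that starts lacto-series glycolipids, differed most between the replicates of WT with LPS. It measured 0.264 CPM in replicate 1 and 24.1 CPM in replicate 2, with 0.339 and 0.919 CPM in KO with LPS. At steady state it measured 4.96 and 12.3 CPM in KO, 6.66 and 14.2 CPM in WT. KO against WT with LPS was therefore log2 -4.34 ± 1.66 (edgeR adjusted p = 0.246).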
